A study of Mus musculus with 12 samples.

Results

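Depletion of fibroblast activation protein (FAP) positive cells and of alpha smooth muscle actin (aSMA) positive cells was compared in pancreas tumours of PKT mice, by asking of each gene whether its depletion effect differed between the 2 lines. The difference was taken as aSMA depleted minus aSMA-TK control, minus FAP depleted minus FAP-TK control, over all 12 tumours of the series, and 30142 genes were tested. A positive value means that the depletion effect was higher in the aSMA line than in the FAP line. The groups were PKT mice of the FAP-TK line without depletion (the FAP-TK controls), PKT mice of that line with FAP cells depleted, PKT mice of the aSMA-TK line without depletion (the aSMA-TK controls), and PKT mice of that line with aSMA cells depleted, with 3 mice and 1 array per mouse in each. All 12 carried the PKT genotype, which the labels do not spell out, and ganciclovir at 50 ug per kg is listed for all of them. The labels leave it unclear whether the controls were injected, and they give no ages.

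The fibroblasts of pancreatic tumours deposit the collagen-rich matrix and secrete cytokines and chemokines that act on tumour and immune cells. They are commonly divided into contractile, matrix-producing myofibroblasts marked by aSMA, the product of Acta2, and other states, and FAP is a surface protease found on many of them. In such models a viral thymidine kinase (TK), expressed from the promoter of a marker gene, turns ganciclovir into a toxic nucleotide that kills dividing cells carrying it. The promoters used here are not given in the labels beyond the names of the lines.

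Values per array are the authors' log2 intensities after quantile normalization, here in the order of replicates 1 to 3. A gene was called above background on an array where it exceeded the 95th percentile of the negative-control probe sets, which held for 1868 to 4902 genes per array. FAP-TK control replicates 1 and 3 and FAP depleted replicate 2 stood apart: positive-control and negative-control probe sets were separated by 2.69 to 2.99 log2 units on these and by 4.32 to 4.89 on the other 9 arrays. The lines differed as well. In the deposited values, negative-control medians were 5.46 to 6.49 in the FAP line and 4.46 to 4.88 in the aSMA line. Medians of the non-control probe sets were 4.41 to 4.65 and 3.89 to 4.10, below the negative-control median on every array, so the background threshold is strict. Xist and Y-linked genes gave 1 female among the FAP-TK controls, 1 among the FAP depleted, 1 among the aSMA-TK controls and 2 among the tumours labelled aSMA depleted. Pairs of arrays had a median correlation of 0.979 both within a group and between the groups of a line, and 0.969 across lines. In whole tumours, fewer cells of a type and less RNA per cell cannot be told apart.

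Across all genes the depletion effects of the lines ran more often in opposite directions than in the same one. Of the 30142 genes, 7525 were lower in the FAP depleted tumours and higher in those labelled aSMA depleted, 9536 were the reverse, 8524 were higher in both and 4557 were lower in both, so that 56.6% lay in opposite directions. The Pearson correlation of the effects across genes was -0.29 and the Spearman correlation -0.22. Among the 3927 genes above background on 6 or more arrays, 61% lay in opposite directions and the Pearson correlation was -0.43. Genes are not independent replicates and each line's effect rests on 3 arrays against 3. The correlation was -0.06 without FAP depleted replicate 2, -0.10 without the 3 arrays of low separation and -0.05 with array weights, which were lowest for FAP depleted replicate 2 and FAP-TK control replicate 2.

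No gene passed the test of the difference. With limma, 0 of 30142 genes (0%) had an adjusted p under 0.05, the smallest adjusted p being 0.829, and 1796 (5.96%) had an unadjusted p under 0.05, of which 630 (2.09%) were positive and 1166 (3.87%) negative. Median centring of the arrays in place of quantile normalization gave 912 positive and 825 negative genes, so the positive share was 35.1% under the one and 52.5% under the other. For the mean of the effects over both lines, 0 genes (0%) passed, at a smallest adjusted p of 0.615, and 840 (2.79%) had an unadjusted p under 0.05. Within the FAP line 0 genes passed, with 1117 (3.71%) at an unadjusted p under 0.05, and within the aSMA line 0 passed, with 1450 (4.81%). Without the arrays of low separation, 13 genes passed within the FAP line, where a single control array then remained. Values after ± are standard errors of the fit, with 3 arrays in each group. The standard error of the difference had a median of 0.27 log2 units over all genes and 0.62 over those above background on 6 or more arrays. All p-values below are from that fit, and "did not pass" refers to the adjusted p. In a simulation on these genes, the test found 4% of planted differences of 1 log2 unit, 22% of those of 2, 36% of those of 3 and 68% of those of 4.

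**Figure D1:**
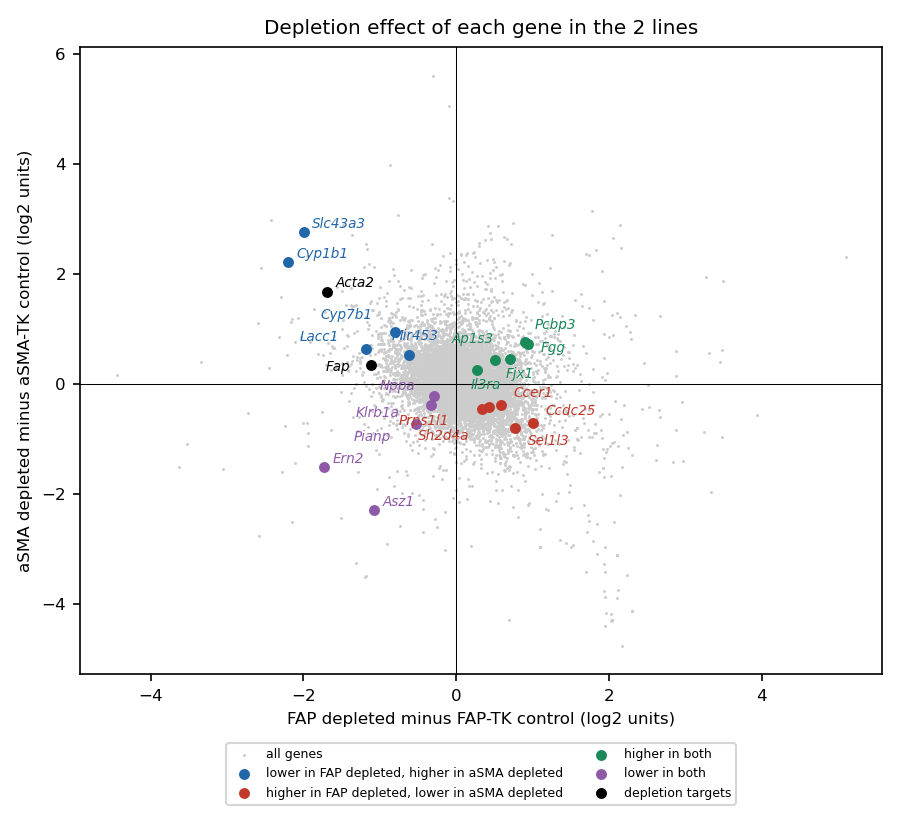
Each grey point is 1 of the 30142 genes, placed by its difference between depleted and control tumours in the FAP line (x axis, log2 units) and in the aSMA line (y axis, log2 units). Coloured points are the depletion targets and, per direction, the 5 named genes with the smallest p in the line where p is larger, and Slc43a3 and Cyp1b1 lie farthest from the origin among those of opposite direction.

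The cloud slopes from upper left to lower right, and 2 of the coloured genes that are lower in the FAP depleted and higher in the tumours labelled aSMA depleted stand well outside it. Acta2 lies in the same corner as those genes and Fap nearer to the x axis.

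Fap, which encodes the protease targeted in the FAP line, stood at 6.56, 7.31 and 6.53 in FAP-TK control tumours, 5.52, 5.34 and 6.21 after FAP depletion, 6.25, 6.39 and 5.76 in aSMA-TK controls and 6.15, 6.01 and 7.25 in the group labelled aSMA depleted. All 3 FAP depleted arrays lay below all 3 FAP-TK controls, while the aSMA groups overlapped. The difference was -1.11 ± 0.37 in the FAP line and 0.34 ± 0.37 in the aSMA line. The difference between those effects was 1.45 ± 0.53 (95% confidence interval 0.27 to 2.63, limma adjusted p = 0.829), with an exact permutation p of 0.05, two-sided, over 400 splits of the arrays within lines, of which the smallest possible is 0.005. Fap was not above background on any array, so these are differences between dim signals.

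Acta2, which encodes aSMA, stood at 8.86, 14.60 and 12.82 in FAP-TK control tumours, 11.87, 7.84 and 11.51 after FAP depletion, 12.26, 10.85 and 11.12 in aSMA-TK controls and 10.13, 13.86 and 15.28 in the group labelled aSMA depleted. In both lines the depleted and control arrays overlapped, and the values spread over several log2 units within groups. The difference was -1.69 ± 1.71 in the FAP line and 1.68 ± 1.71 in the aSMA line, so Acta2 was not lower in the tumours labelled aSMA depleted than in their controls. Its difference between effects was 3.37 ± 2.42 (95% confidence interval -2.04 to 8.78, adjusted p = 0.854), with an exact permutation p of 0.2. The label of the aSMA depleted group is therefore not borne out by the level of its target in whole-tumour RNA, and every direction in that line is given for the tumours so labelled.

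Sequence upstream of Acta2 and of Cyp1b1, the gene described next, is shown because the first names the aSMA line and the second had one of the largest differences of opposite sign. Both are the 250 bases before the RefSeq transcription start in GRCm38.p6, on the minus strand, at chr19:34255374-34255623 for Acta2 and chr17:79715062-79715311 for Cyp1b1. Capitals mark matches, on either strand, to the 5 motifs searched.
Acta2: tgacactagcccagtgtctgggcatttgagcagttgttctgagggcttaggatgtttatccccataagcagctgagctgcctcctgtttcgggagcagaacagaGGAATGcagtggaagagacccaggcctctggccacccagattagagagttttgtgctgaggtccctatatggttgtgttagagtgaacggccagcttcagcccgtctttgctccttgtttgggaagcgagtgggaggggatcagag
Cyp1b1: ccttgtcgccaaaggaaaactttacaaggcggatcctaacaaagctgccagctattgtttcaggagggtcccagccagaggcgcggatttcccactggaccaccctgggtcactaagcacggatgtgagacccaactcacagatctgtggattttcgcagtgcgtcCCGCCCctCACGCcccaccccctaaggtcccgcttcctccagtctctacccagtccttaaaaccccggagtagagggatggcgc
The motifs were AP-1 (TGANTCA), the TATA box (TATAAA), the GC box (GGGCGG), the TEAD motif (CATTCC) and the core of the xenobiotic response element (GCGTG), which occur in 6.75%, 12.4%, 32.7%, 12.6% and 28.2% of 32851 such windows. Acta2 had 1 TEAD match beginning 146 bases before the start. Cyp1b1 had a GC box 84 bases and a xenobiotic core 76 bases before it, which do not overlap. A match is a description of the letters and not evidence of binding. Of the 33 genes that the rule named outside the gene lists, 16 had a promoter in the table, among them 2 of those in opposite directions shown in the plot.

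Genes whose arrays did not overlap in either line, and that lay in opposite directions, numbered 189. Of these, 75 (0.249% of all genes) were lower in the FAP depleted tumours and higher in those labelled aSMA depleted, and 114 (0.378%) were the reverse. Within the FAP line alone 2440 genes (8.1%) did not overlap, 5.6% being higher and 2.5% lower in the depleted tumours. Within the aSMA line alone 3773 genes (12.5%) did not, 7.43% being higher and 5.08% lower. Of the 20 splits of a line's arrays into 3 and 3, a share of 0.1 separates the groups by order alone. The shares of 8.1% and 12.5% lie near that, so lack of overlap in a line is not by itself a sign of an effect. Leaving out 1 array, which by itself makes overlap rarer, gave 252 to 501 genes in opposite directions (501 without FAP-TK control replicate 2) against 142 to 435 in the same direction (435 without FAP depleted replicate 2), where 100 were in the same direction over all arrays. Without the 3 arrays of low separation the counts were 1558 and 1335. A single FAP-TK control array then remained, which makes overlap rarer still, so these counts cannot be set against 189 and 100. With the filter on dim genes the counts were 23 and 10. Only 6 of the 75 and 10 of the 114 were above background on 6 or more arrays. An unadjusted p under 0.05 in both lines with opposite signs was reached by 79 genes (0.262%), against 34 (0.113%) with the same sign.

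Slc43a3 encodes a transporter of purine nucleobases and had the largest difference among the 33 genes that the rule named outside the gene lists. Among the list members it named, the acinar gene Prss2 had a difference of larger size, -5.31. It stood at 11.18, 11.02 and 10.60 in FAP-TK control tumours, 9.81, 7.20 and 9.80 after FAP depletion, 9.36, 8.56 and 8.10 in aSMA-TK controls and 11.53, 10.96 and 11.82 in the group labelled aSMA depleted. Every FAP depleted array lay below every FAP-TK control and every array labelled aSMA depleted lay above every aSMA-TK control, with FAP depleted replicate 2 the lowest of all. The effect was -2.00 ± 0.64 in the FAP line and 2.76 ± 0.64 in the aSMA line. The difference between effects was 4.76 ± 0.91 (95% confidence interval 2.73 to 6.78), and it did not pass (limma adjusted p = 0.829). It lay between 3.78 and 5.19 under all alternatives run, and it was 3.97 without the 3 arrays of low separation. Slc43a3 was above background on 9 arrays.

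Cyp1b1, a cytochrome P450 that oxidizes polycyclic hydrocarbons and oestradiol and a known target of the aryl hydrocarbon receptor, stood at 9.37, 10.94 and 10.07 in FAP-TK control tumours, 8.91, 6.20 and 8.67 after FAP depletion, 8.32, 8.01 and 7.52 in aSMA-TK controls and 9.28, 10.71 and 10.49 in the group labelled aSMA depleted. The groups did not overlap in either line and the direction in each line was the same as for Slc43a3, again with FAP depleted replicate 2 lowest. Its effects were -2.20 ± 0.71 and 2.21 ± 0.71, nearly equal and of opposite sign, and the difference between them was 4.41 ± 1.00 (adjusted p = 0.829). Their mean was 0.01 ± 0.50, so averaging the lines hides both. Cyp1b1 was above background on 4 arrays.

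Dennd4a, an activator of Rab10 in vesicle traffic, had the same pattern of no overlap, with a difference of 3.33 ± 0.74 from effects of -2.14 ± 0.53 and 1.19 ± 0.53, and was above background on 5 arrays. Of brighter genes with this pattern, chosen after their values were seen because they were above background on 6 or more arrays, Slc50a1, a sugar transporter, stood at 11.17, 12.07 and 11.56 in FAP-TK control tumours, 10.59, 10.51 and 11.08 after FAP depletion, 11.27, 10.75 and 11.17 in aSMA-TK controls and 11.77, 11.43 and 11.76 in the group labelled aSMA depleted. Its difference was 1.47 ± 0.35. Cfl2, the muscle form of cofilin, which severs actin filaments, had a difference of 1.15 ± 0.28, from -0.47 ± 0.20 in the FAP line and 0.68 ± 0.20 in the aSMA line. The small cytoplasmic RNA Bc1 had 1.83 ± 0.44, from -1.27 ± 0.31 and 0.56 ± 0.31. All 4 had an adjusted p of 0.829.

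The reverse pattern, higher in the FAP depleted tumours and lower in those labelled aSMA depleted, was led among brighter genes by Ccdc25, a transmembrane protein known as a sensor of extracellular DNA. Ccdc25 stood at 9.04, 9.21 and 8.85 in FAP-TK control tumours, 10.33, 9.90 and 9.89 after FAP depletion, 9.12, 9.73 and 9.35 in aSMA-TK controls and 8.38, 8.92 and 8.77 in the group labelled aSMA depleted. The FAP depleted arrays were the only ones to reach 9.89, and the lowest group was the one labelled aSMA depleted. The effects were 1.01 ± 0.20 and -0.71 ± 0.20 and the difference -1.72 ± 0.29 (95% confidence interval -2.36 to -1.07, limma adjusted p = 0.829). It was above background on 6 arrays.

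Sel1l3 stood at 8.75, 8.88 and 8.29 in FAP-TK control tumours, 9.38, 9.27 and 9.58 after FAP depletion, 9.79, 10.01 and 10.29 in aSMA-TK controls and 8.79, 9.38 and 9.49 in the group labelled aSMA depleted. The controls of the lines differed here, since every aSMA-TK control exceeded every FAP-TK control, and the means of both depleted groups lay between the control means. The difference between effects was -1.58 ± 0.31, from 0.77 ± 0.22 and -0.81 ± 0.22. Sh2d4a, an SH2 domain adaptor, had a smaller difference of -0.85 ± 0.18, from 0.43 ± 0.12 and -0.42 ± 0.12, with arrays that did not overlap in either line. Gpat4, an enzyme of the first step of glycerolipid synthesis, had -1.08 ± 0.22, from 0.75 ± 0.15 and -0.33 ± 0.15. Sel1l3 and Sh2d4a were above background on 7 arrays and Gpat4 on 4.

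**Figure D2:**
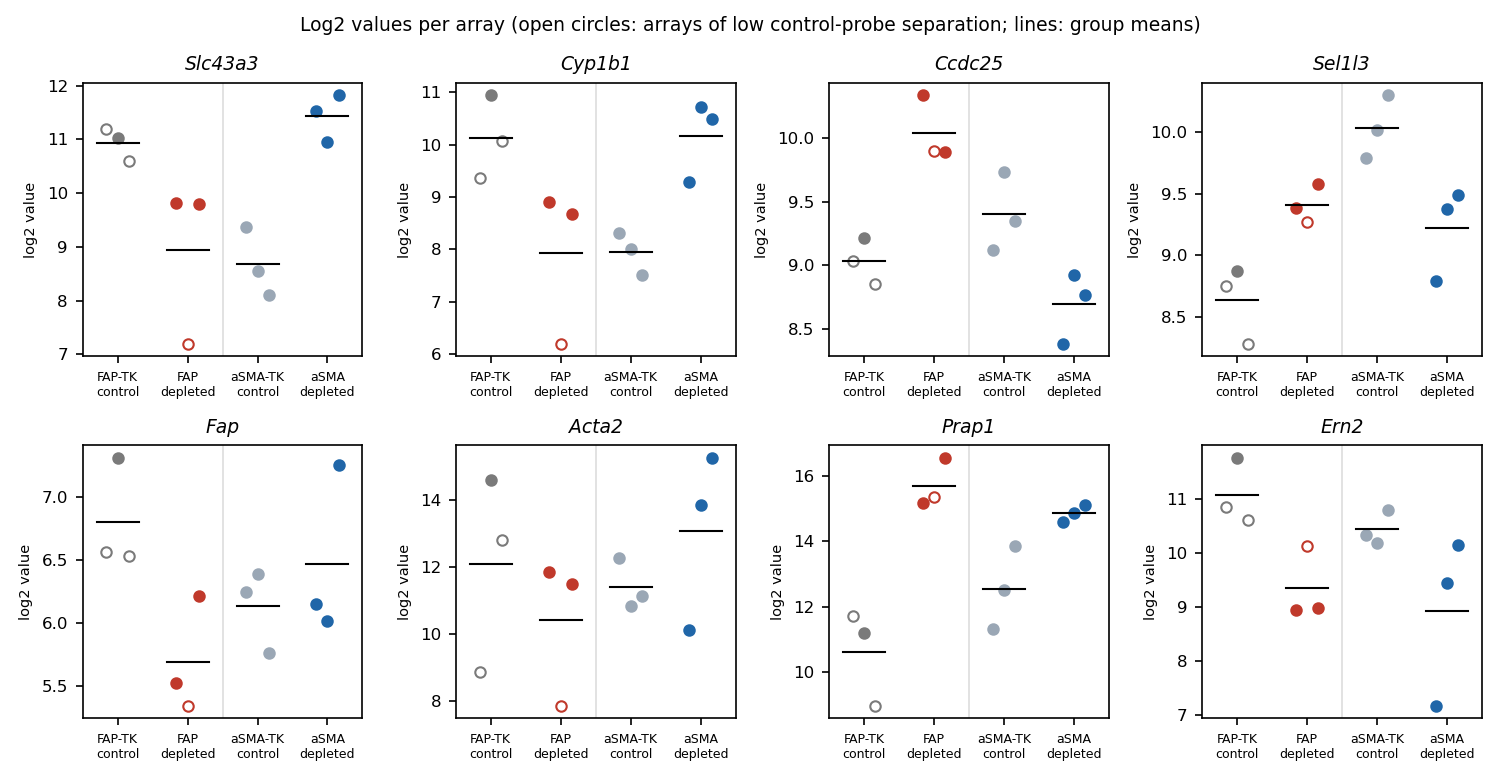
Log2 values on each array (y axis) in the 4 groups (x axis) for 8 genes, with group means as lines and the 3 arrays of low control-probe separation as open circles. Slc43a3 and Cyp1b1 are lower in the FAP depleted and higher in the tumours labelled aSMA depleted, Ccdc25 and Sel1l3 are the reverse, Acta2 overlaps in both lines, Prap1 is higher and Ern2 lower in both depleted groups.

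In the plot, the open circle of the FAP depleted group is the lowest array of that group for Slc43a3, Cyp1b1, Sel1l3, Fap and Acta2. For Ccdc25 and Prap1 the open circle of that group lies among the other arrays, and for Ern2 it is the highest.

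The remaining genes named for a positive difference were dim, none above background on any array. Lacc1, an enzyme of purine metabolism in macrophages, stood at 8.17, 8.14 and 8.12 in FAP-TK control tumours, 6.63, 7.04 and 7.26 after FAP depletion, 6.42, 6.52 and 6.81 in aSMA-TK controls and 7.62, 7.28 and 6.73 in the group labelled aSMA depleted. The FAP-TK controls lay within 0.05 log2 units of each other and above every FAP depleted array, while the aSMA groups overlapped, and the difference was 1.80 ± 0.32. Cyp7b1, a hydroxylase of oxysterols, did not overlap in either line and had 1.74 ± 0.37. Tbc1d4, a Rab GTPase-activating protein of insulin-stimulated glucose uptake, had 1.24 ± 0.27, and Prkab2, a regulatory subunit of AMP-activated kinase, had 0.74 ± 0.16. Trav10n, a T cell receptor variable segment, had 1.00 ± 0.19, Zfp534, a zinc finger gene, 0.83 ± 0.17, and Pbld2 0.53 ± 0.10. The limma adjusted p was 0.829 for each.

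Among the genes named for a negative difference, Ccer1 had the smallest unadjusted p, 0.000103, and a difference of -0.97 ± 0.15. Ccer1 stood at 4.01, 3.99 and 4.00 in FAP-TK control tumours, 4.56, 4.77 and 4.43 after FAP depletion, 4.45, 4.35 and 4.63 in aSMA-TK controls and 4.04, 4.18 and 4.05 in the group labelled aSMA depleted. Its FAP-TK controls were nearly identical and the depleted groups did not overlap their controls in either line, but no array was above background. Dennd11 was higher in the FAP depleted tumours by 1.14 ± 0.19 with -0.17 ± 0.19 in the aSMA line, a difference of -1.32 ± 0.27. Prps1l1, related to the enzyme that makes phosphoribosyl pyrophosphate, had -0.79 ± 0.16, the bitter taste receptor Tas2r121 -0.87 ± 0.18 and the olfactory marker protein gene Omp -0.79 ± 0.17. Dennd11 was above background on 1 array and the others on none.

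The rule also named 2 microRNA genes, 1 in each direction, whose mature sequences are shown to compare their seeds, the bases 2 to 8 in capitals that pair with targets. They are from RefSeq (GRCm38.p6), at chr12:109735669-109735692 on the plus strand for mmu-miR-453 and chrX:52378155-52378174 on the minus strand for mmu-miR-6384.
mmu-miR-453: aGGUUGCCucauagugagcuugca
mmu-miR-6384: gCUUUCCUacuguuucccug
The seeds differ. Mir453 stood at 4.46, 4.84 and 4.67 in FAP-TK control tumours, 3.94, 4.07 and 4.11 after FAP depletion, 3.73, 3.45 and 3.74 in aSMA-TK controls and 3.79, 4.44 and 4.28 in the group labelled aSMA depleted, a difference between effects of 1.15 ± 0.24. Mir6384 had a difference of -0.57 ± 0.12, with no overlap in either line. Neither was above background on any array, and the array measures the gene's transcript and not the mature form alone.

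Fewer genes lay in the same direction in both lines without overlap: 77 (0.255%) were higher and 23 (0.0763%) lower in both depleted groups. Of the 77, 7 were above background on 6 or more arrays, and of the 23 only 1 was. For these genes the mean of both effects is the measure, and 633 genes (2.1%) had a positive and 207 (0.687%) a negative mean at an unadjusted p under 0.05.

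Prap1, a secreted proline-rich protein of epithelia and the member of the gastric and mucosal list with the smallest p, stood at 11.71, 11.19 and 8.95 in FAP-TK control tumours, 15.19, 15.38 and 16.57 after FAP depletion, 11.30, 12.50 and 13.85 in aSMA-TK controls and 14.59, 14.86 and 15.13 in the group labelled aSMA depleted. Every depleted array exceeded every control array of its line. The effect was 5.10 ± 0.78 in the FAP line and 2.31 ± 0.78 in the aSMA line, with a mean of 3.71 ± 0.55 (limma adjusted p = 0.615), and the effects differed by -2.79 ± 1.11 (adjusted p = 0.829). Msln, the mesothelial and tumour cell surface protein mesothelin, stood at 12.04, 13.57 and 13.01 in FAP-TK control tumours, 15.41, 13.69 and 15.34 after FAP depletion, 11.94, 11.56 and 11.41 in aSMA-TK controls and 12.33, 12.80 and 12.49 in the group labelled aSMA depleted, a mean effect of 1.42 ± 0.34. Its FAP depleted replicate 2 exceeded the highest FAP-TK control by little. Gclc, the catalytic subunit of the enzyme that starts glutathione synthesis, stood at 15.55, 12.43 and 13.07 in FAP-TK control tumours, 16.56, 15.66 and 18.63 after FAP depletion, 13.96, 13.12 and 13.77 in aSMA-TK controls and 15.95, 15.75 and 14.99 in the group labelled aSMA depleted, a mean effect of 2.61 ± 0.61. The FAP groups nearly met, at 15.55 in the highest control and 15.66 in the lowest depleted tumour.

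Smaller mean effects of this pattern were those of Aldh1a1, a retinaldehyde dehydrogenase, at 1.40 ± 0.42, the glycolytic enzyme Pgk1 at 1.08 ± 0.32 and the sorting nexin Snx7 at 0.48 ± 0.14. Gclc, Aldh1a1, Pgk1 and Snx7 were chosen after their values were seen, for being above background on 6 or more arrays, and none passed (adjusted p = 1). Ern2 was the only gene lower in both lines without overlap that was that bright. It encodes the endoplasmic reticulum stress sensor of mucus-secreting epithelia and stood at 10.86, 11.77 and 10.61 in FAP-TK control tumours, 8.94, 10.12 and 8.98 after FAP depletion, 10.34, 10.18 and 10.79 in aSMA-TK controls and 7.16, 9.45 and 10.15 in the group labelled aSMA depleted. Its effects were -1.73 ± 0.68 and -1.52 ± 0.68, with a mean of -1.62 ± 0.48 and a difference between them of only 0.21 ± 0.96.

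The other genes that the rule named for a shared direction were dim. Higher in both depleted groups were Pcbp3, an RNA-binding protein, at a mean of 0.83 ± 0.15, Fgg, the fibrinogen gamma chain, at 0.84 ± 0.17, Ap1s3, a subunit of the clathrin adaptor AP-1 complex, at 0.58 ± 0.11, Fjx1 at 0.48 ± 0.09 and the interleukin 3 receptor alpha chain gene Il3ra at 0.26 ± 0.06. Lower in both were Asz1, a germ cell gene, at -1.68 ± 0.33, Pianp at -0.63 ± 0.16, the natural killer receptor gene Klrb1a at -0.36 ± 0.07 and the natriuretic peptide gene Nppa at -0.25 ± 0.07. The FAP groups of Asz1 overlapped, and its effects were -1.07 ± 0.46 in the FAP line and -2.29 ± 0.46 in the aSMA line. Each of these dim genes kept its sign under all alternatives that measured it, and none passed under any. They were chosen for a small p on these same arrays, so a kept sign is no independent support.

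Gene lists were then described by how many members had a positive difference between effects, beside 46.4% of all genes and a median of -0.03 over all genes. The 36 lists held 552 entries, of which 498 had a probe set with that gene as its only symbol. No member of any list passed. Most fibroblast genes had a positive difference. Of 15 measured pan-fibroblast genes, 15 had a positive difference, with a median of 1.45, and 13 had a negative estimate in the FAP line and a positive one in the aSMA line. The depletion target Fap is among the 15, and the median of 1.45 is its own value. The median effect was -0.61 in the FAP line and 0.92 in the aSMA line. Of the 15, 6 were above background on 6 or more arrays and 4, all positive, had an unadjusted p under 0.05, beside 2.09% of all genes.

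Dcn, the collagen-binding proteoglycan decorin, stood at 8.20, 11.25 and 12.19 in FAP-TK control tumours, 10.80, 6.95 and 9.81 after FAP depletion, 9.61, 10.11 and 9.63 in aSMA-TK controls and 13.14, 13.06 and 11.29 in the group labelled aSMA depleted, a difference of 4.07 ± 1.62. The aSMA groups did not overlap, and the FAP groups did. Vim, the intermediate filament protein of mesenchymal cells, stood at 11.21, 13.90 and 12.80 in FAP-TK control tumours, 12.10, 9.31 and 12.49 after FAP depletion, 12.47, 11.90 and 11.56 in aSMA-TK controls and 13.04, 13.39 and 13.77 in the group labelled aSMA depleted, a difference of 2.76 ± 1.20. As with Dcn, FAP depleted replicate 2 was the lowest of the 12 arrays. Spon1, a matrix protein, had 1.85 ± 0.63, and the collagen genes Col1a1 and Col1a2 had 0.91 ± 1.40 and 1.43 ± 1.23.

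The mean log2 value of the 15 pan-fibroblast genes was 8.43, 10.01 and 9.56 in FAP-TK control tumours, 9.25, 7.19 and 9.39 after FAP depletion, 9.38, 9.24 and 8.75 in aSMA-TK controls and 9.50, 9.91 and 10.53 in the group labelled aSMA depleted. The aSMA groups did not overlap and the FAP groups did. FAP depleted replicate 2 was lowest by more than 1 log2 unit, and without it the list's median difference was 0.82, with 12 of 15 positive, and its median effect in the FAP line was -0.01. Without the 3 arrays of low separation the median was 1.79, again the value of Fap itself, with 14 positive. The part of those arrays in the result was not tested further.

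Myofibroblastic genes had the same direction in 14 of 15 members, with a median difference of 1.15 from medians of -0.59 and 0.57. The depletion target Acta2 is a member of this list and of the smooth muscle contractile list. Cdh11, the mesenchymal cadherin, had 2.26 ± 0.80, and Col12a1, a collagen associated with fibrils, had 2.66 ± 1.38. Without FAP depleted replicate 2 the median was 0.10, with 9 of 15 positive. Of the 15 smooth muscle contractile genes, 13 were positive, with a median of 0.50, and only 2 were above background on 6 or more arrays. That median was 0.23 without FAP depleted replicate 2 and 0.29 without FAP-TK control replicate 2, each with 10 of 15 positive. Mylk, the kinase of myosin light chains, had 0.88 ± 0.34. The inflammatory fibroblast list had 11 of 15 positive and a median of 0.92, but 2 of its members were that bright. The median was 0.12, with 8 of 15 positive, without aSMA depleted replicate 2, 0.34 without FAP-TK control replicate 3 and 0.42 without the 3 arrays of low separation. Its Cxcl12, the chemokine that binds the receptor CXCR4, had 1.36 ± 0.37 and Il1r1, the interleukin 1 receptor, 2.61 ± 0.80, whereas Lif, a cytokine of the interleukin 6 family, had -0.90 ± 0.37. Pericyte genes had 8 of 10 positive at a median of 0.26, and endothelial genes 9 of 13 at 0.19, and both medians changed sign under some alternatives.

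**Figure D3:**
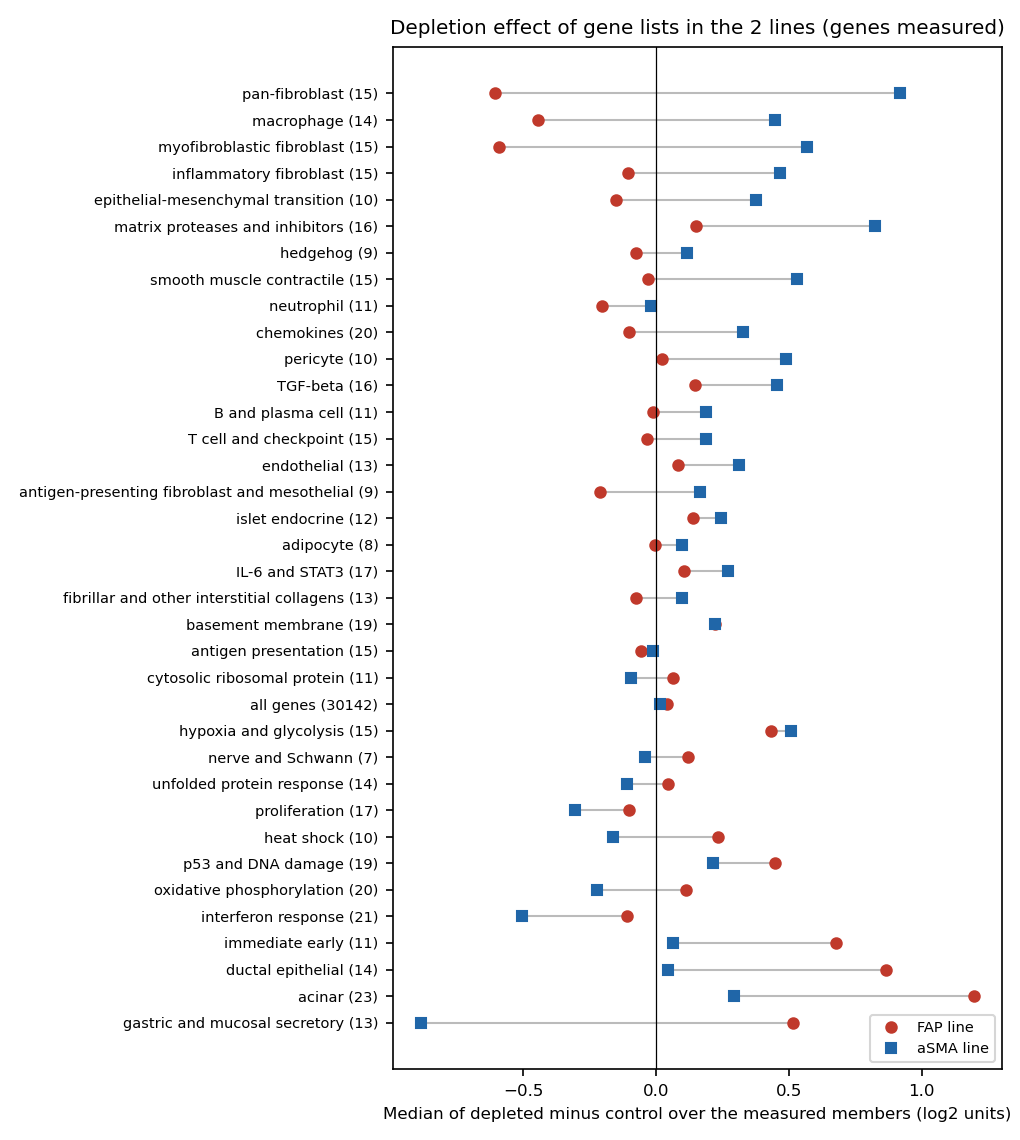
Median difference between depleted and control tumours (x axis, log2 units) over the measured members of each list (y axis, number of genes measured in parentheses) in the FAP line (circles) and the aSMA line (squares), ordered by the median difference between effects. Pan-fibroblast genes lie at -0.61 and 0.92, and gastric and mucosal genes at 0.52 and -0.89.

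Lists at the top of the plot have the aSMA line to the right of the FAP line. They include the pan-fibroblast, macrophage, myofibroblastic, inflammatory fibroblast, epithelial-mesenchymal and matrix protease lists. Those at the bottom, the ductal, acinar and gastric lists, have it to the left. Interstitial collagens and basement membrane genes lie in between, with median differences between effects of 0.05 and 0.04.

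Matrix proteases and their inhibitors had 13 of 16 positive and a median of 0.59, from 0.15 in the FAP line and 0.82 in the aSMA line, where 7 of the 16 were higher without overlap, beside 7.43% of all genes. The median was 0.20 without FAP depleted replicate 2, 0.30 without FAP-TK control replicate 2 and 1.00 without FAP-TK control replicate 1. Mmp9, a gelatinase, had 1.88 ± 0.77, Mmp14, a membrane-bound collagenase, 2.21 ± 1.19, and Lox, which crosslinks collagen, 1.60 ± 1.67. The genes of epithelial-mesenchymal transition had 9 of 10 positive and a median of 0.71, with 3 of the 10 above background on 6 or more arrays. That median was 0.30 without FAP depleted replicate 2 and 0.43 without FAP-TK control replicate 2. The transcription factor Zeb1 had 1.03 ± 0.36 and Cdh1, the epithelial cadherin and the sole negative member, -1.27 ± 0.93. Interstitial collagens, with 8 of 13 positive at a median of 0.05, and basement membrane genes, with 10 of 19 at 0.04, were near the share of all genes.

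Hedgehog ligands come from the epithelium and act on fibroblasts through the receptor Ptch1 and the Gli factors. The ligand Shh had -1.79 ± 1.41 from effects of 0.33 in the FAP line and -1.46 in the aSMA line. The receptor and target Ptch1 had 1.75 ± 0.54, the transcription factor and target Gli1 0.88 ± 0.25 and Gli3 0.75 ± 0.27. These 3 of the 9 measured genes had an unadjusted p under 0.05, beside 2.09% of all genes with a positive difference at that threshold. They were dim, with Ptch1 above background on 2 arrays and Gli1 and Gli3 on none. Whether the ligand and its targets are linked here was not tested. In all, 6 of 9 were positive. In the TGF-beta list, 11 of 16 were positive at a median of 0.25. Its co-receptor Tgfbr3 had 1.78 ± 0.42, while the signal transducer Smad3 and the inhibitor Smad7 had -1.22 ± 0.39 and -0.84 ± 0.30. The interleukin 6 list had 11 of 17 positive at a median of 0.05, with 1.48 ± 0.57 for Osmr, the oncostatin M receptor, and 1.50 ± 0.72 for Il6st, the shared receptor chain gp130. Without FAP depleted replicate 2 the medians of the TGF-beta and interleukin 6 lists were -0.15 and -0.09.

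Macrophage genes had 12 of 14 positive at a median of 1.18, from -0.44 and 0.45, with 6 above background on 6 or more arrays. Mrc1, the mannose receptor, had 2.86 ± 2.02 and the complement gene C1qb 2.41 ± 1.83, and 0 of the 14 had an unadjusted p under 0.05. Their mean log2 value was 7.34 on FAP-TK control replicate 1 and 7.19 on FAP depleted replicate 2, both of low separation, and 8.89 to 10.93 on the other 10. The median difference was 0.29 without FAP depleted replicate 2 and 0.17, with 7 of 14 positive, without FAP-TK control replicate 2. T cell genes had 12 of 15 positive, none above background on 6 or more arrays, and B and plasma cell genes 10 of 11, with 1 that bright.

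Epithelial genes ran the other way. Of 14 ductal genes, 12 were above background on 6 or more arrays and 1 had a positive difference. Their median was -0.78, from 0.87 in the FAP line and 0.04 in the aSMA line, so the FAP line supplied most of it. Cldn7, a tight junction claudin, stood at 7.90, 8.13 and 7.70 in FAP-TK control tumours, 9.03, 8.32 and 8.96 after FAP depletion, 8.69, 9.14 and 8.94 in aSMA-TK controls and 8.17, 8.87 and 8.70 in the group labelled aSMA depleted, a difference of -1.20 ± 0.34. The FAP depleted arrays all exceeded the FAP-TK controls, while the aSMA groups overlapped. Krt7, the duct keratin, stood at 10.67, 11.39 and 10.62 in FAP-TK control tumours, 12.13, 11.19 and 12.07 after FAP depletion, 12.30, 12.57 and 12.55 in aSMA-TK controls and 11.75, 12.25 and 12.10 in the group labelled aSMA depleted, a difference of -1.34 ± 0.40. Here the aSMA groups did not overlap and the FAP groups did. These 2 genes are not typical of the list. Of the 14, only 1 was higher without overlap in the FAP line, beside 5.6% of all genes, and 0 were lower. In the aSMA line 1 was higher and 1 lower without overlap, beside 7.43% and 5.08% of all genes. The simple keratins Krt8 and Krt19 had -1.52 ± 0.88 and -1.63 ± 1.00. The mean of the 14 genes was 12.69, 13.27 and 12.46 in FAP-TK control tumours and 13.90, 12.51 and 14.20 after FAP depletion. Without FAP depleted replicate 2, the low one, the median was -1.47, with 0 of 14 positive. Without FAP depleted replicate 3 it was -0.24, with 5 positive.

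Gastric and mucosal secretory genes, which mark a mucous programme of the tumour epithelium, had 3 of 13 positive and a median of -1.67, from 0.52 and -0.89. The trefoil peptide gene Tff1 stood at 19.10, 19.84 and 18.37 in FAP-TK control tumours, 19.51, 19.59 and 19.75 after FAP depletion, 19.87, 19.86 and 19.87 in aSMA-TK controls and 15.82, 19.87 and 19.87 in the group labelled aSMA depleted. Of these values 5, all in the aSMA line, were at the highest level on their array (within 0.05 log2 units), so they are lower bounds and no difference is given for Tff1. Only aSMA depleted replicate 1 stood well below the others. In this list 3 of the 13 members were at that level on 1 or more arrays. The gastric mucin Muc5ac had -4.46 ± 2.61 and Gkn1, a gastrokine, -2.21 ± 1.73, whereas Muc6, the gland mucin, had 4.60 ± 2.40. Without aSMA depleted replicate 1 the list's median was -0.71 and its median effect in the aSMA line -0.03. Without the 3 arrays of low separation it was -0.44.

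Acinar genes, the digestive enzymes of the normal pancreas, had 5 of 23 positive and a median of -1.15, from 1.20 and 0.29. Their mean was 5.67 on aSMA depleted replicate 1 and 10.04 and 11.64 on replicates 2 and 3, a wider spread than in any other group. In the FAP line the mean was 6.38, 6.65 and 8.02 in the controls and 9.27, 7.62 and 8.60 in the depleted tumours, which overlapped. Without aSMA depleted replicate 1 the median was 0.06, the sole alternative under which it was above 0, with 13 of 23 positive.

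**Figure D4:**
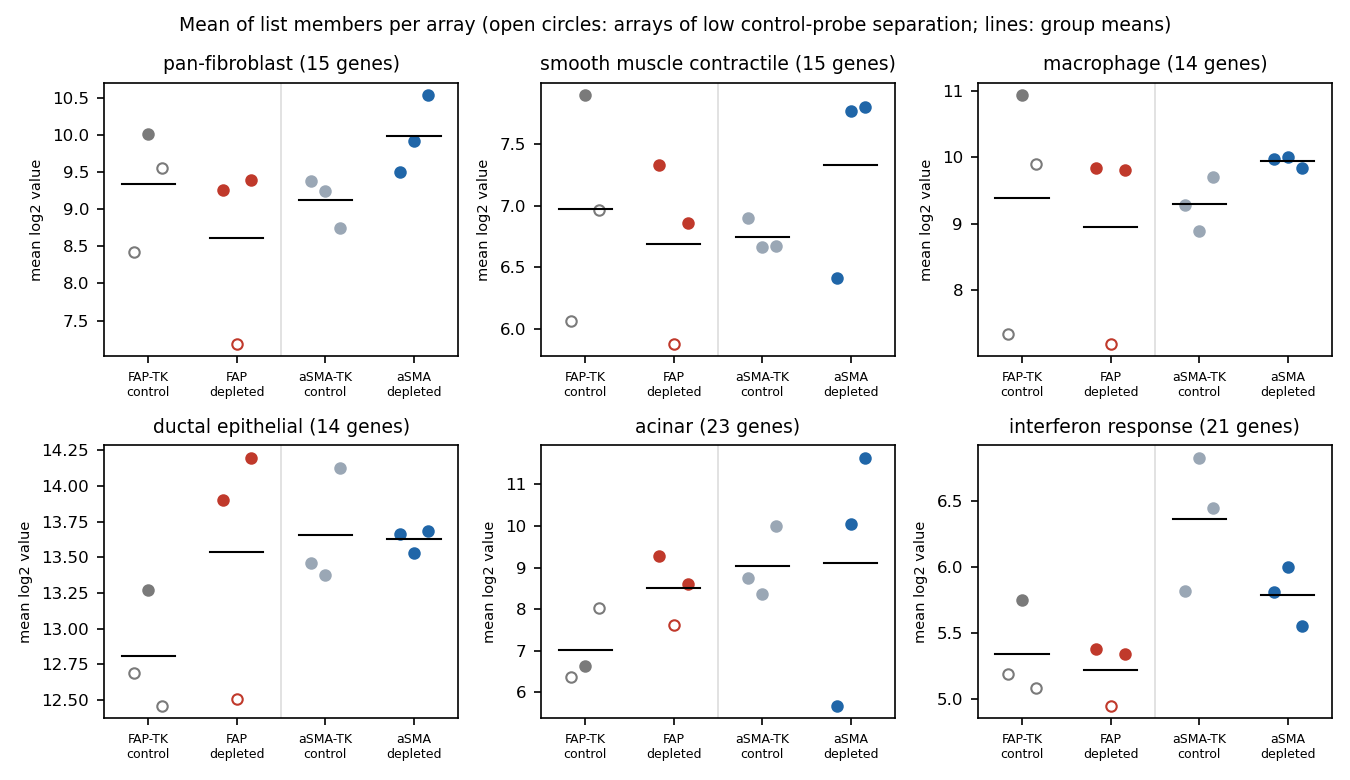
Mean log2 value of the members of 6 lists (y axis) on each array of the 4 groups (x axis), with group means as lines and the arrays of low control-probe separation as open circles. Pan-fibroblast means do not overlap in the aSMA line, and the low open circles of the FAP line set much of its spread.

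In that plot the macrophage, smooth muscle and pan-fibroblast lists share the same low arrays of the FAP line. The acinar list has its lowest and highest arrays in the group labelled aSMA depleted.

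Of the interferon response genes, 15 of 21 had negative estimates in both lines, 1 had positive ones in both, and 2 of 21 had a positive difference, with medians of -0.11 in the FAP line and -0.50 in the aSMA line. Ifit1 and Oas1a, which restrict viral RNA, had effects of -0.41 and -0.29 in the FAP line and -1.17 and -1.18 in the aSMA line. No member was above background on 6 or more arrays, and the list's median difference of -0.44 was -0.01 without the 3 arrays of low separation. Proliferation genes had negative estimates in both lines in 12 of 17 and p53 target genes positive ones in both in 13 of 19, beside 4557 and 8524 of all 30142 genes. Of the nuclear-encoded oxidative phosphorylation genes, 13 of 20 had a positive estimate in the FAP line and a negative one in the aSMA line, beside 9536 of all 30142 genes. Their median difference was -0.37 and was 0.10, with 13 of 20 positive, without the 3 arrays of low separation and -0.64 without FAP-TK control replicate 2. In the aSMA line 6 of the 20 were lower without overlap, beside 5.08% of all genes.

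**Figure D5:**
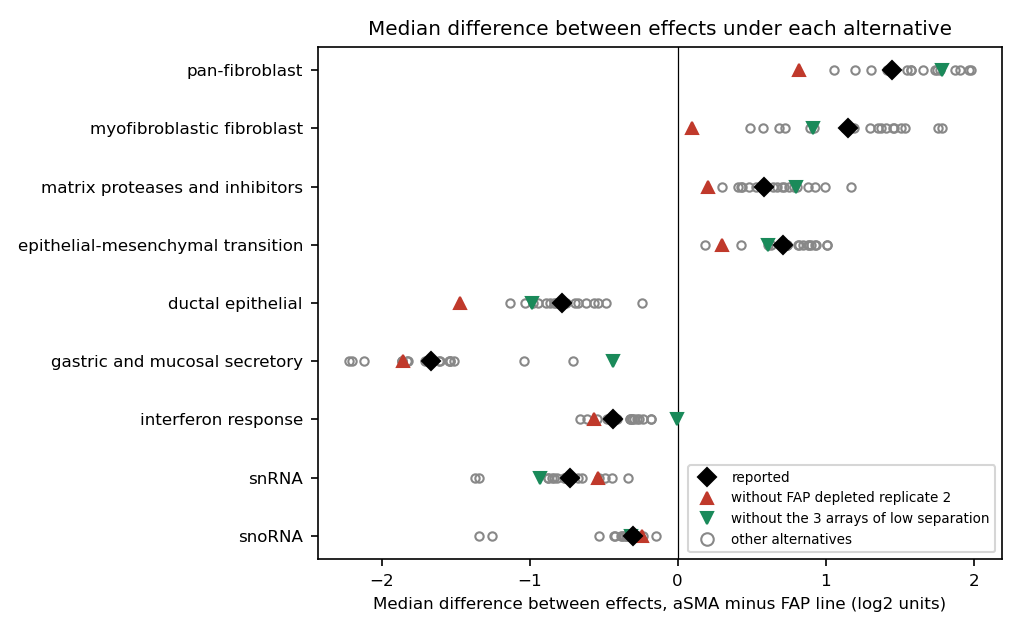
Median difference between effects (x axis, log2 units) for 9 sets of genes (y axis) as reported (diamonds) and under each alternative (other symbols). The pan-fibroblast median stays between 0.82 and 1.98 and the ductal median between -1.47 and -0.24.

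Over all alternatives run, the sign of the median was kept by the pan-fibroblast, myofibroblastic, inflammatory fibroblast, smooth muscle, macrophage, matrix protease and epithelial-mesenchymal lists, all positive, and by the ductal, gastric and interferon lists, all negative. Smaller medians also kept their sign under the alternatives that measured them. These were the T cell (0.10 to 0.41), B and plasma cell (0.04 to 0.36) and nerve and Schwann (-0.21 to -0.03) lists. In the plot, the 4 positive medians were lower and the ductal median was more negative without FAP depleted replicate 2.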

How the data were processed

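The authors' deposited values, 1 column per array for 72688 probe sets, are log2 intensities by their range, and no label or header names their background correction or normalization. Per the submitters' processing notes, limma was used. The label protocol names a kit for Illumina arrays, whereas the probe set identifiers are of an Affymetrix whole-transcript array. Quantile normalization was applied to 65956 probe sets, without the 6732 controls. A gene was taken from probe sets with exactly 1 annotated symbol (30604, of which 827 symbols were updated through the RefSeq gene table), keeping the brightest of several, with no filter on dim genes.

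Group means were fitted over the 12 arrays with limma 3.58.1 in R 4.3.3 (lmFit and eBayes, two-sided, Benjamini-Hochberg over 30142 genes, threshold 0.05). Single measures of the targets used exact permutation tests. The fit was tested on simulated data. The number of arrays limits the precision, and log2 differences were not converted to folds. The rule for single genes named Fap and Acta2, the 10 genes per direction of smallest p for the difference, and, for opposite and for shared signs, the 5 per direction whose larger p of the simple effects was smallest, leaving out clone names and olfactory and vomeronasal receptors, and the 4 members of smallest p per list. The list members Col1a1, Lox, Cdh1, Shh, Gkn1, Tff1 and Oas1a were described outside this rule, as were the brighter genes marked as chosen after their values were seen. The genes and lists were chosen with earlier results of these data known. Alternatives were median centring, values as deposited, a filter on dim genes (above background on 3 arrays), the mean over probe sets, trended and robust variances, array weights, control-probe separation or sex as a covariate, an adjusted p under 0.1, and leaving out arrays. A filter at 6 arrays was added after seeing the data.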

Additional observations from a re-analysis of the deposited data

Results flagged for a closer look

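Of the 171 genes that the rule named, 15 moved in opposite directions in the 2 lines without overlap. Every depleted tumour then lay on one side of all controls of its line. Over all genes, 0.249% were lower in the FAP line and higher in the aSMA line without overlap, and 0.378% were the reverse. The difference between effects, in log2 units, was positive for Slc43a3 (4.76), Trav10n (1.00), Mir453 (1.15), Cyp7b1 (1.74), Prkab2 (0.74), Dennd4a (3.33) and Cyp1b1 (4.41). It was negative for Ccer1 (-0.97), Ccdc25 (-1.72), Prps1l1 (-0.79), Sel1l3 (-1.58), Gpat4 (-1.08), Sh2d4a (-0.85), Mir6384 (-0.57) and Omp (-0.79). limma's test of the difference did not pass for any of them (adjusted p = 0.829 in each case). These 15 genes were named for a small p of the difference or for effects of opposite sign. Their count follows from that choice and is a description of these 12 arrays.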

How the results depend on the processing

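The count of genes passing in the difference between effects was 0 in the reported analysis and 0 under every alternative except without aSMA-TK control replicate 1, where it was 1, H2-Ea at -4.31 ± 0.26 (limma adjusted p = 0.00197). H2-Ea was at 7.96 and 8.59 on aSMA-TK control replicates 2 and 3 and between 3.45 and 3.98 on the other 10 arrays, and it passed there in the mean effect too (adjusted p = 0.00115). Leaving out 1 array gave 0 to 1 genes for the difference, 0 to 1 for the mean effect, 0 to 4 in the FAP line and 0 to 16 in the aSMA line. In the FAP line 13 genes passed without the 3 arrays of low separation. The correlation of the effects, -0.29 as reported, ranged from -0.4204 to -0.0601 when 1 array was left out. It was -0.39 with the filter on dim genes, -0.43 with the filter at 6 arrays that was added after seeing the data, -0.0504 with array weights and -0.10 without the arrays of low separation. The 33 genes that the rule named outside the gene lists kept their sign under every alternative that measured them. So did 126 of the 138 other list members it named, while 12 changed sign under 1 or more. All but Fap and Acta2 were chosen for a small p on these same arrays, so a kept sign is no independent support. The cause of the changes above was not tested. The smallest adjusted p for the difference was 0.0528 without the arrays of low separation. No paired analysis was possible because the labels number the mice from 1 to 12 with no number shared between groups.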

Other observations

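Small nuclear and small nucleolar RNA genes, a grouping chosen after their values were seen, mostly had a negative difference between effects. Of 914 small nuclear RNA genes, which include the RNAs of the spliceosome, 772 had a negative difference between effects, with a median of -0.73 from 0.29 in the FAP line and -0.36 in the aSMA line. Among them 163 had a negative and 10 a positive difference at an unadjusted p under 0.05, beside 3.87% and 2.09% of all genes, and 285 were above background on 6 or more arrays. Of 955 small nucleolar RNA genes, which guide the modification of ribosomal RNA, 764 were negative, with a median of -0.30, and 121 had a negative and 8 a positive difference at that threshold, beside the same shares of all genes. Both medians were negative under all 22 alternatives, from -1.37 to -0.34 and from -1.34 to -0.14. Of 19046 protein-coding genes 50.2% were positive, with a median of 0.00, and of 4274 pseudogenes 37.7% were. Many of these small RNA genes are near-identical copies whose probes can share signal, so they are not independent measurements. None passed at an adjusted p under 0.05 in limma.

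Of 600 microRNA genes 51.5% had a positive difference, and 45 were above background on 6 or more arrays. In both depleted groups 180 were lower and 70 higher, beside 4557 lower and 8524 higher of all 30142 genes. Of 3169 long noncoding RNA genes 49% were positive.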
